A study of Homo sapiens with 9 samples.

Results

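Heparan sulfate is a sulfated sugar chain that cells attach to proteoglycans, and the genes described here build it, sulfate it, supply the sulfate donor or trim it outside the cell. The set held 38 named genes. A gene counted as measured when the array had a probe set annotated to it and to no other gene, and where a gene had several, the one with the highest mean over all arrays was used. On that rule 31 of the 38 were measured, out of 14215 genes with a probe set of their own. The other 7 were NDST2, HS6ST1, HS3ST6 and BPNT2, for which no probe set was annotated, and XYLT1, HS3ST3A1 and HS3ST3B1, which stood only on probe sets naming several genes; no value is given for them.

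The cells were SKOV3, an established human ovarian tumour line. For 3 days, in medium with serum, they received Ac-4-deoxy-GlcNAc at 50 µM, the peracetylated 4-deoxy analog of N-acetylglucosamine, or Ac-GlcNAc at 50 µM, the peracetylated sugar itself, or no compound (untreated). Each group had 3 arrays, each from a separate culture flask, so the p-values measure the spread between flasks of 1 line. The labels name no vehicle for the untreated flasks. The acetyl groups let the sugars enter cells, and the analog lacks the hydroxyl at carbon 4, the position of N-acetylglucosamine to which the next sugar of a heparan sulfate chain is joined.

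Synthesis begins on a serine of the core protein with a linker of xylose, galactose, galactose and glucuronic acid, which is shared with chondroitin sulfate. Enzymes of the exostosin family then add N-acetylglucosamine and glucuronic acid in turn, and sulfotransferases decorate the chain with sulfate carried by PAPS, the activated sulfate donor. The sulfate pattern decides which growth factors and chemokines the chain holds at the cell surface, and tumour cells can alter it.

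Values are log2 levels per probe set as normalized by the authors, and a difference is between group means on that log2 scale. Differences were tested with limma over all 17859 probe sets, and "called" means a Benjamini-Hochberg adjusted p under 0.05. Array medians lay between 6.58 and 6.65. The SD over probe sets was 2.07 to 2.17 on Ac-4-deoxy-GlcNAc arrays, 2.14 to 2.18 on Ac-GlcNAc arrays and 1.92 to 2.08 on untreated arrays, with the lowest on untreated replicate 2. That array had a mean correlation of 0.987 with the others, against 0.99 to 0.994 on the remaining arrays. Of the epithelial and ovarian tumour markers, 7 of 8 measured, ERBB2, KRT8 and PAX8 among them, had mean levels above the median probe set, with WT1 below it. Of 9 markers of other cells, PTPRC, CD3E, DCN and ALB lay at or below the 25th percentile, and CD68 (8.89 to 9.55) and LUM (6.49 to 7.31) above the median.

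In cells given Ac-4-deoxy-GlcNAc, 4 of the 31 measured genes were called lower than in untreated cells: EXTL2, BPNT1, B3GALT6 and SLC35B3. Called higher were 0. Over all probe sets 11.0% were called, 5.64% lower and 5.38% higher. In either direction the share of the set, 12.9%, was near the background of 11.0%. All calls of the set were lower, where the background was 5.64%, and whether it differs in direction was not tested. With Ac-GlcNAc 0 of the 31 were called, where 0.442% of all probe sets were (0.235% lower and 0.207% higher), while 7 of the 31 had an unadjusted p under 0.05 beside 26.4% of all probe sets. Between the compounds 1 gene, BPNT1, was called, lower with Ac-4-deoxy-GlcNAc, beside 2.38% of all probe sets (1.48% lower and 0.896% higher). At an unadjusted p under 0.05 there were 10 genes between the analog and untreated cells and 5 between the compounds, beside 31.2% and 13.6% of all probe sets. Across the 3 groups the moderated F test called EXTL2, BPNT1 and B3GALT6, beside 8.36% of all probe sets.

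The promoter windows of the called genes are shown because these genes carry the calls of the set. RefSeq windows of build GRCh38.p14, with 250 bases before the annotated start and 50 after it, were held for 3 of the 4 genes and are written 5′ to 3′ on the strand of the gene. Capitals mark, on either strand, the E-box CACGTG, the GC box GGGCGG and the CCAAT box.
EXTL2, chr1:100894793-100895092, minus strand: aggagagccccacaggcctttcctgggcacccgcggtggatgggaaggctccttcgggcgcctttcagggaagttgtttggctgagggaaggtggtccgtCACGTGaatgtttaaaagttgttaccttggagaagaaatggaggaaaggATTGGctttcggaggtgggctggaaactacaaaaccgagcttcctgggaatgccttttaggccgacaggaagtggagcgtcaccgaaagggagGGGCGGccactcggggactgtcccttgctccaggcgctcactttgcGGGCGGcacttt
B3GALT6, chr1:1231987-1232286, plus strand: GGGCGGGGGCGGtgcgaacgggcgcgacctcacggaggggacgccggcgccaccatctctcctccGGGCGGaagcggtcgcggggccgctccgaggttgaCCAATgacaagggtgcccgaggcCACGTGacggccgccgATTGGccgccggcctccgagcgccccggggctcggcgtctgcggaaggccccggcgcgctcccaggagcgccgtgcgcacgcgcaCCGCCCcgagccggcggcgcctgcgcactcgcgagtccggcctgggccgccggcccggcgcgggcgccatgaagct
SLC35B3, chr6:8435518-8435817, minus strand, the more upstream of 2 annotated starts: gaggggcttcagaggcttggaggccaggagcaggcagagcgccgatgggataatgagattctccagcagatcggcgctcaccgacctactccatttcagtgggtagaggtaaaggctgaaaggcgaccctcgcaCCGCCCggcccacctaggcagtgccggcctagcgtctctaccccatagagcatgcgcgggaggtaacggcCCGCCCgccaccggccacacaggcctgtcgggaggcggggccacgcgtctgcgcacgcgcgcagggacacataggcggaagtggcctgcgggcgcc

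The windows of EXTL2 and B3GALT6 each held 1 CACGTG, an E-box to which basic helix-loop-helix factors can bind. It began 150 bases before the EXTL2 start and 127 bases before that of B3GALT6. In both it lay inside the longer letters GTCACGTG, on the strand of the gene in EXTL2 and on the other strand in B3GALT6. Neither E-box letters nor CCAAT were in the SLC35B3 window, which held 2 GC boxes. Among 35116 windows of all genes, 7.26% held CACGTG, 2.40% GTCACGTG, 45.0% GGGCGG and 34.6% CCAAT. Over the 26 measured genes of the set with a window, 5 held CACGTG in at least 1 window (EXTL2, B3GALT6, SLC35B2, SULF2 and HPSE), 3 GTCACGTG, 22 GGGCGG and 7 CCAAT, against 8.77%, 2.93%, 48.3% and 39.7% of all 27305 genes. SLC35B2, SULF2 and HPSE, whose windows also held CACGTG, were not called, with differences between Ac-4-deoxy-GlcNAc and untreated of -0.07, 0.05 and -0.01. Besides EXTL2 and B3GALT6, the gene with GTCACGTG was SLC35B2. The letters GTCACGTG were chosen after the sequences had been seen, and a match describes the window and no more.

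Of the 6 measured linker genes, 1 was called lower with Ac-4-deoxy-GlcNAc than in untreated cells, where 5.64% of all probe sets were. B3GALT6 adds the second galactose of the linker. B3GALT6 measured 6.48, 6.47 and 6.47 with Ac-4-deoxy-GlcNAc, 6.82, 6.67 and 6.99 with Ac-GlcNAc and 6.89, 6.80 and 6.86 in untreated cells. All Ac-4-deoxy-GlcNAc arrays lay below all arrays of both other groups, which overlapped each other. The mean was 6.47 ± 0.01 with Ac-4-deoxy-GlcNAc and 6.85 ± 0.05 in untreated cells (SD, n = 3 each), 1.3-fold lower under the analog (log2 -0.38, SE 0.10, adjusted p = 0.0287). Between the compounds the difference was -0.35 (95% interval -0.56 to -0.14, adjusted p = 0.0829), which did not pass. It passed among probe sets above the median level (adjusted p = 0.0425) and with array weights (0.0332). With 1 array left out it did not pass (0.0959 to 0.289). Ac-GlcNAc differed from untreated by -0.02 (-0.23 to 0.19). The call against untreated ended without untreated replicate 3 (adjusted p = 0.0624) or Ac-4-deoxy-GlcNAc replicate 1, 2 or 3 (0.0685, 0.0589 and 0.0971), at differences of -0.37 to -0.38.

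B4GALT7, which adds the first galactose, also lay lowest with Ac-4-deoxy-GlcNAc, without passing the test. B4GALT7 measured 7.19, 7.44 and 7.41 with Ac-4-deoxy-GlcNAc, 7.69, 7.57 and 7.78 with Ac-GlcNAc and 7.60, 7.55 and 7.80 in untreated cells. The Ac-4-deoxy-GlcNAc arrays lay below all others, and the difference was -0.30 against untreated (adjusted p = 0.0844) and -0.33 against Ac-GlcNAc (adjusted p = 0.141). The first of these passed after cyclic loess (-0.34, adjusted p = 0.029), quantile normalization and array weights. For the other 4 linker genes no comparison had an unadjusted p under 0.05: XYLT2, a xylosyltransferase that starts the linker, B3GAT3, which adds its glucuronic acid, FAM20B, the kinase that phosphorylates its xylose, and PXYLP1, the phosphatase that removes this phosphate. From untreated cells, XYLT2 differed by 0.12 with the analog and 0.04 with Ac-GlcNAc, B3GAT3 by -0.01 and 0.17, FAM20B by -0.17 and -0.06, and PXYLP1 by -0.15 and -0.13. Over the 9 arrays XYLT2 ran from 8.64 to 8.93, B3GAT3 from 7.997 to 8.71, FAM20B from 8.26 to 8.67 and PXYLP1 from 7.19 to 7.53. The widest interval with the analog was that of B3GAT3 (-0.35 to 0.33), whose Ac-GlcNAc arrays ran from 8.08 to 8.71.

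**Figure D1:**
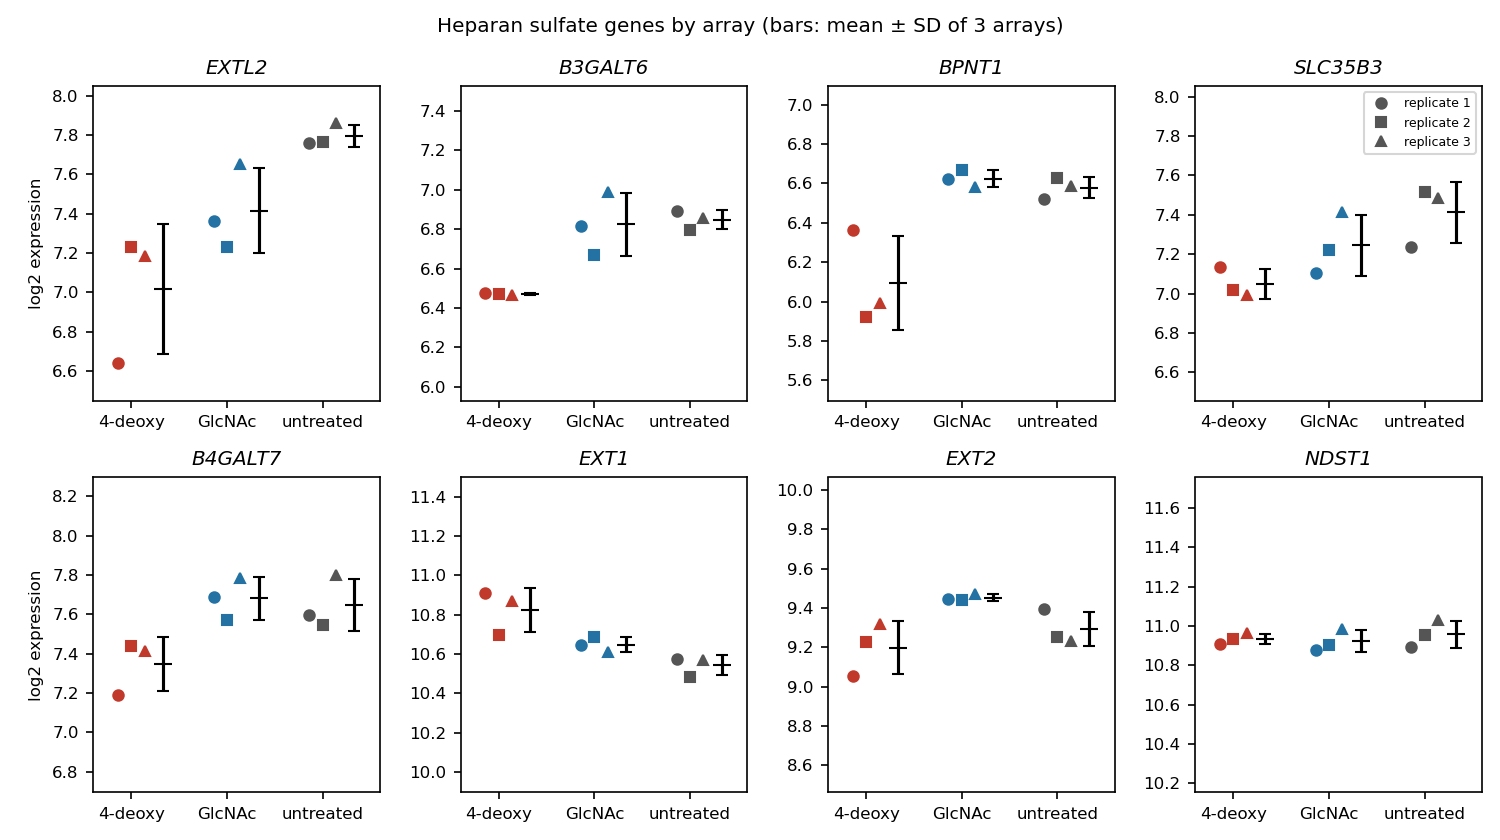
Log2 expression of 8 heparan sulfate genes on each array, with Ac-4-deoxy-GlcNAc (4-deoxy), Ac-GlcNAc (GlcNAc) and untreated cells from left to right; symbols mark the replicate number, the black marks give mean ± SD of 3 arrays, and each vertical axis spans the same length. EXTL2 is lowest with Ac-4-deoxy-GlcNAc and highest in untreated cells, BPNT1 and B3GALT6 lie lower with Ac-4-deoxy-GlcNAc than in both other groups, which overlap, and NDST1 lies between 10.88 and 11.03 throughout.

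Among the 5 exostosin family genes, EXTL2 was called, lower with Ac-4-deoxy-GlcNAc, and the other 4 were not. With the analog 5.64% of all probe sets were called lower. EXTL2 can transfer an N-acetylhexosamine to the linker, and in mice and cultured cells it has been found to restrain chain formation. EXTL2 measured 6.64, 7.23 and 7.19 with Ac-4-deoxy-GlcNAc, 7.36, 7.23 and 7.65 with Ac-GlcNAc and 7.76, 7.76 and 7.86 in untreated cells. The groups stepped down in order: each Ac-4-deoxy-GlcNAc array lay below the lowest Ac-GlcNAc array, the nearest by under 0.01, and each Ac-GlcNAc array below the lowest untreated one. Ac-4-deoxy-GlcNAc replicate 1 was the lowest of all. The mean was 7.02 ± 0.33 with Ac-4-deoxy-GlcNAc and 7.79 ± 0.06 in untreated cells (SD, n = 3 each), 1.71-fold lower under the analog (log2 -0.78, SE 0.15, adjusted p = 0.00748). Without Ac-4-deoxy-GlcNAc replicate 1 the difference was -0.59, and the call held whichever of the 6 arrays was dropped (adjusted p = 0.00669 to 0.0254) and under each of the 12 other settings tried (0.00124 to 0.0241). Ac-GlcNAc differed from untreated by -0.38 (-0.70 to -0.06, adjusted p = 0.142) and Ac-4-deoxy-GlcNAc from Ac-GlcNAc by -0.40 (-0.72 to -0.07, adjusted p = 0.223); neither passed. The difference between the compounds was -0.21 without Ac-4-deoxy-GlcNAc replicate 1 and -0.26 with array weights. That of Ac-GlcNAc from untreated passed with array weights (-0.49, adjusted p = 0.0323). It was -0.59 with the array SD as a covariate, which did not pass. With 1 array left out it was -0.50 to -0.29 and did not pass (adjusted p = 0.133 to 0.352).

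EXT1 and EXT2 together form the polymerase that lengthens the chain. EXT1 measured 10.91, 10.70 and 10.87 with Ac-4-deoxy-GlcNAc, 10.65, 10.69 and 10.61 with Ac-GlcNAc and 10.57, 10.48 and 10.57 in untreated cells. Its arrays ran the other way from those of EXTL2, highest with Ac-4-deoxy-GlcNAc and lowest in untreated cells without overlap, at a difference of 0.28 between these groups that did not pass (SE 0.09, adjusted p = 0.0637). It passed with trend and robust options (adjusted p = 0.0324) and among probe sets above the median level (0.0454). After cyclic loess, after quantile normalization and with array weights it was 0.22 (adjusted p = 0.101, 0.107 and 0.115). With 1 array left out it was 0.24 to 0.35 and did not pass (0.0515 to 0.194). EXT2 measured 9.05, 9.23 and 9.32 with Ac-4-deoxy-GlcNAc, 9.44, 9.44 and 9.47 with Ac-GlcNAc and 9.39, 9.25 and 9.23 in untreated cells. All Ac-GlcNAc arrays were the highest, with a difference between Ac-4-deoxy-GlcNAc and Ac-GlcNAc of -0.25 (adjusted p = 0.232). EXT1 and EXT2 thus differed from untreated cells by 0.28 and -0.10 with the analog; the difference between these values was not tested.

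EXTL3 puts the first N-acetylglucosamine of a heparan sulfate chain on the linker. It ran from 8.64 to 9.19 on the 9 arrays and differed by -0.15 (-0.40 to 0.10) between Ac-4-deoxy-GlcNAc and untreated, by 0.08 (-0.17 to 0.33) between Ac-GlcNAc and untreated, and by -0.23 (-0.48 to 0.02) between the compounds. EXTL1, a further N-acetylglucosaminyltransferase of the family, stood near the low end of the scale. EXTL1 measured 5.22, 4.98 and 4.95 with Ac-4-deoxy-GlcNAc, 5.02, 4.95 and 5.18 with Ac-GlcNAc and 5.24, 5.56 and 5.28 in untreated cells. Arrays of both compounds lay below all untreated ones, with differences of -0.31 for the analog and -0.31 for Ac-GlcNAc, at adjusted p = 0.0921 and 0.127. After cyclic loess these were -0.19 and -0.16, after quantile normalization -0.20 and -0.16, and with the array SD as a covariate -0.16 and -0.09.

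Of the genes that convert N-acetylglucosamine to N-sulfoglucosamine and epimerise glucuronic acid, 0 of 4 measured were called in any comparison. Over all probe sets 11.0%, 0.442% and 2.38% were called with the analog, with Ac-GlcNAc and between the compounds. NDST1, the N-deacetylase and N-sulfotransferase that opens the way to all later sulfation, measured 10.91, 10.93 and 10.96 with Ac-4-deoxy-GlcNAc, 10.88, 10.90 and 10.98 with Ac-GlcNAc and 10.89, 10.95 and 11.03 in untreated cells. Its range over the 9 arrays, 0.15, was the smallest in the set, and its differences from untreated were -0.02 (-0.21 to 0.16) with the analog and -0.04 (-0.23 to 0.15) with Ac-GlcNAc. GLCE, the epimerase, ran from 8.96 to 9.31 and differed by -0.03 (-0.24 to 0.18) with Ac-4-deoxy-GlcNAc and by 0.15 (-0.06 to 0.35) with Ac-GlcNAc. NDST3 measured 4.09, 4.14 and 3.93 with Ac-4-deoxy-GlcNAc, 4.05, 4.04 and 4.06 with Ac-GlcNAc and 4.25, 4.49 and 4.33 in untreated cells. NDST4 measured 4.07, 4.13 and 3.84 with Ac-4-deoxy-GlcNAc, 3.86, 3.81 and 3.73 with Ac-GlcNAc and 4.00, 4.46 and 3.86 in untreated cells. For both of these NDST1 relatives the highest array was untreated replicate 2. NDST3 differed from untreated by -0.31 and -0.31 with the analog and with Ac-GlcNAc (adjusted p = 0.0567 and 0.0981), and NDST4 by -0.09 and -0.31 (0.676 and 0.181). After cyclic loess the NDST3 differences were -0.12 and -0.07, and that of NDST4 with Ac-GlcNAc was -0.05; without untreated replicate 2 it was -0.13.

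Beside 11.0% of all probe sets called with the analog, 0 of the 7 measured sulfotransferases that act on oxygen were called in any comparison. HS3ST1, whose product carries the antithrombin-binding site, had the largest difference with Ac-4-deoxy-GlcNAc among them. HS3ST1 measured 6.28, 6.35 and 5.88 with Ac-4-deoxy-GlcNAc, 6.22, 6.44 and 6.50 with Ac-GlcNAc and 6.68, 6.51 and 6.33 in untreated cells. The groups overlapped, and the difference between Ac-4-deoxy-GlcNAc and untreated was -0.34 (SE 0.14, adjusted p = 0.113). It was -0.19 without Ac-4-deoxy-GlcNAc replicate 3 and -0.19 with array weights. HS6ST2, a 6-O-sulfotransferase, was lower with Ac-GlcNAc than in untreated cells without overlap, at a difference of -0.26 that did not pass (adjusted p = 0.176). The difference was -0.15 without untreated replicate 2 (the highest array), -0.09 after cyclic loess, -0.08 after quantile normalization, -0.15 with array weights and -0.10 with the array SD as a covariate. HS6ST2 measured 4.70, 4.998 and 4.95 with Ac-4-deoxy-GlcNAc, 4.86, 4.77 and 4.76 with Ac-GlcNAc and 4.99, 5.28 and 4.90 in untreated cells. HS2ST1, which sulfates the uronic acid, ran from 7.55 to 7.90 and was the only one of the 7 with a positive difference from untreated under both compounds, at 0.11 (-0.10 to 0.32) with the analog and 0.12 (-0.09 to 0.34) with Ac-GlcNAc. The others, HS6ST3, HS3ST2, HS3ST4 and HS3ST5, differed by -0.18 to -0.10 with Ac-4-deoxy-GlcNAc and by -0.23 to -0.17 with Ac-GlcNAc, and none of these 8 differences was called. They ran from 4.35 to 4.73 (HS6ST3), 4.83 to 5.33 (HS3ST2), 5.23 to 5.77 (HS3ST4) and 4.09 to 4.61 (HS3ST5) over the 9 arrays.

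Of the 5 measured genes of the sulfate donor, BPNT1 and SLC35B3 were called with Ac-4-deoxy-GlcNAc, where 11.0% of all probe sets were, and SLC35B3 lost its call under 10 settings. BPNT1 encodes the cytosolic phosphatase that clears PAP, the nucleotide left once PAPS has given up its sulfate. BPNT1 measured 6.37, 5.92 and 5.99 with Ac-4-deoxy-GlcNAc, 6.62, 6.67 and 6.58 with Ac-GlcNAc and 6.52, 6.63 and 6.59 in untreated cells. Every Ac-4-deoxy-GlcNAc array was below every other array, and Ac-GlcNAc and untreated arrays overlapped. The mean was 6.09 ± 0.24 with Ac-4-deoxy-GlcNAc and 6.58 ± 0.05 in untreated cells (SD, n = 3 each), 1.4-fold lower under the analog (log2 -0.48, SE 0.11, adjusted p = 0.0194). Against Ac-GlcNAc, at 6.62 ± 0.04, the analog gave a BPNT1 level 1.44-fold lower, a log2 difference of -0.53 (SE 0.11, adjusted p = 0.026), and Ac-GlcNAc differed from untreated by 0.05 (-0.20 to 0.29). The call against untreated ended without Ac-4-deoxy-GlcNAc replicate 2 or 3 (adjusted p = 0.0582 and 0.0912). The call between the compounds ended without Ac-4-deoxy-GlcNAc replicate 2 or 3 (0.0823 and 0.105) and without Ac-GlcNAc replicate 1, 2 or 3 (0.0974, 0.114 and 0.0844), at differences of -0.44 to -0.55. Median centring also ended it (0.0563).

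SLC35B3, one of a pair of transporters that bring PAPS into the Golgi, was called close to the threshold. SLC35B3 measured 7.13, 7.02 and 6.99 with Ac-4-deoxy-GlcNAc, 7.11, 7.22 and 7.41 with Ac-GlcNAc and 7.24, 7.52 and 7.49 in untreated cells. The Ac-4-deoxy-GlcNAc arrays lay below the untreated ones and overlapped those of Ac-GlcNAc. The means were 7.05 ± 0.07 with Ac-4-deoxy-GlcNAc and 7.41 ± 0.15 in untreated cells (SD, n = 3 each), a difference of -0.36 (SE 0.11, adjusted p = 0.0491). The call ended without untreated replicate 2 or 3 (adjusted p = 0.131 and 0.11), without Ac-4-deoxy-GlcNAc replicate 1, 2 or 3 (0.0705, 0.101 and 0.167), and with the replicate number as a block (0.0507). SLC35B2, the other PAPS transporter, ran from 10.44 to 10.64 over the 9 arrays and differed by -0.07 (-0.27 to 0.12) with Ac-4-deoxy-GlcNAc and by -0.00023 (-0.19 to 0.19) with Ac-GlcNAc. The enzymes that make PAPS were not called: PAPSS1 ran from 8.62 to 8.98 and differed by -0.13 with the analog and -0.03 with Ac-GlcNAc. PAPSS2 measured 8.71, 8.89 and 8.98 with Ac-4-deoxy-GlcNAc, 9.02, 8.99 and 8.98 with Ac-GlcNAc and 8.83, 8.53 and 8.85 in untreated cells. Its Ac-GlcNAc arrays lay above all untreated ones, at a difference of 0.26 that did not pass (adjusted p = 0.158). It was 0.16 without untreated replicate 2, 0.14 after cyclic loess, 0.15 after quantile normalization and 0.00076 with the array SD as a covariate.

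The enzymes that act on finished chains outside the cell showed 0 calls among 4, beside 11.0% of all probe sets with the analog. SULF2, a sulfatase that removes 6-O-sulfate, ran from 10.05 to 10.33 on all arrays and differed from untreated by 0.05 (-0.16 to 0.25) with Ac-4-deoxy-GlcNAc and 0.01 (-0.19 to 0.22) with Ac-GlcNAc. HPSE, heparanase, which cuts the chain, ran from 6.94 to 7.40 and differed by -0.01 (-0.25 to 0.23) with the analog, 0.20 (-0.04 to 0.45) with Ac-GlcNAc and -0.22 (-0.46 to 0.02) between them. SULF1, the second sulfatase, was at the low end of the scale. SULF1 measured 4.36, 4.31 and 4.07 with Ac-4-deoxy-GlcNAc, 4.27, 4.26 and 4.16 with Ac-GlcNAc and 4.42, 4.82 and 4.46 in untreated cells. It differed from untreated by -0.32 and -0.34 (adjusted p = 0.0974 and 0.119), which became -0.19 and -0.21 without untreated replicate 2 and -0.14 and -0.12 after cyclic loess. HPSE2, which binds heparan sulfate without cutting it, differed by -0.19 and -0.21 over a range of 4.19 to 4.74.

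**Figure D2:**
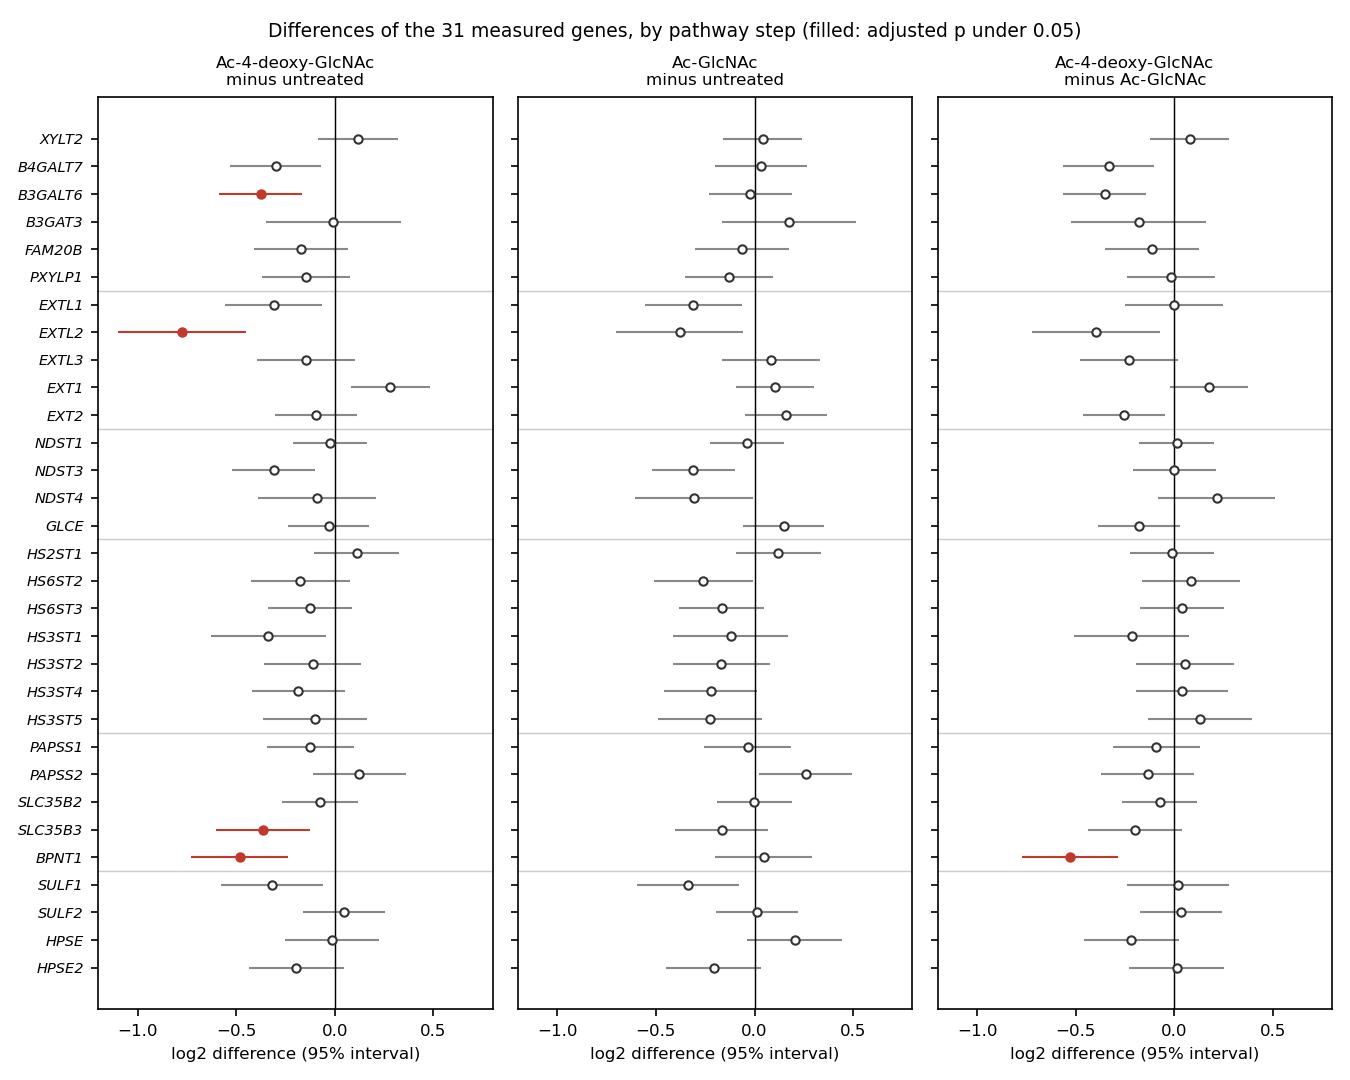
Log2 difference with its 95% interval for the 31 measured genes in the 3 comparisons, in pathway order from linker to extracellular enzymes, with grey lines between steps; filled points are called. Against untreated, Ac-4-deoxy-GlcNAc has 4 filled points, all left of 0, Ac-GlcNAc has 0, and between the compounds BPNT1 alone is filled.

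With Ac-4-deoxy-GlcNAc 26 of 31 genes had a difference below 0, with a median of -0.13, where 58.1% of all probe sets were below 0 with a median of -0.05. With Ac-GlcNAc 19 of 31 were below 0, with a median of -0.04, where 52.7% of all probe sets were, with a median of -0.02. These comparisons share the untreated arrays. Between the compounds 18 of 31 were below 0, with a median of -0.02, beside 49.1% and 0.00 over all probe sets. The arrays of Ac-4-deoxy-GlcNAc and untreated did not overlap for 9 genes, 8 of them lower, where 32.1% of all probe sets did not overlap (19.1% lower). For Ac-GlcNAc against untreated this held for 10 genes, 7 of them lower, beside 32.3% (19.3% lower), and between the compounds for 10, 9 of them lower, beside 21.2% (11.6% lower).

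Direction depended on the level of a probe set. At or below the 25th percentile of mean level, 86.6% of all probe sets were lower with Ac-4-deoxy-GlcNAc than in untreated cells and 92.3% with Ac-GlcNAc. The 6 genes of the set in that range, NDST3, NDST4, HS6ST3, HS3ST5, SULF1 and HPSE2, all had differences below 0 in both comparisons, with medians of -0.16 and -0.27. On 5 of the 6, as on 78.3% of all probe sets in that range, the highest of the 9 arrays was untreated replicate 2, the array with the narrowest range of values. Without it the medians were -0.09 and -0.17, after cyclic loess 0.01 and -0.03 (3 and 4 of the 6 below 0), and after quantile normalization 0.02 and -0.03 (3 and 3 below 0). With the SD of the arrays as a covariate they were -0.03 and -0.02 (5 and 4 below 0).

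The other 25 genes lay above that percentile. With Ac-4-deoxy-GlcNAc 20 of 25 were below 0, with a median of -0.13, where 48.6% of all probe sets above the 25th percentile were, with a median of 0.01. The count was 21 without untreated replicate 2 and 20 after cyclic loess. With Ac-GlcNAc 13 of 25 were below 0 with a median near 0 (-0.00023), beside 39.5% and 0.05, and after cyclic loess 18 of 25 were, with a median of -0.07. EXTL2, SLC35B3 and B3GALT6 had mean levels of 7.41, 7.24 and 6.72, a range in which the median probe set differed by 0.01 to 0.03 with Ac-4-deoxy-GlcNAc, and BPNT1 had 6.43, where it differed by -0.03. In total RNA of a culture, fewer cells expressing a gene and less RNA per cell cannot be told apart.

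**Figure D3:**
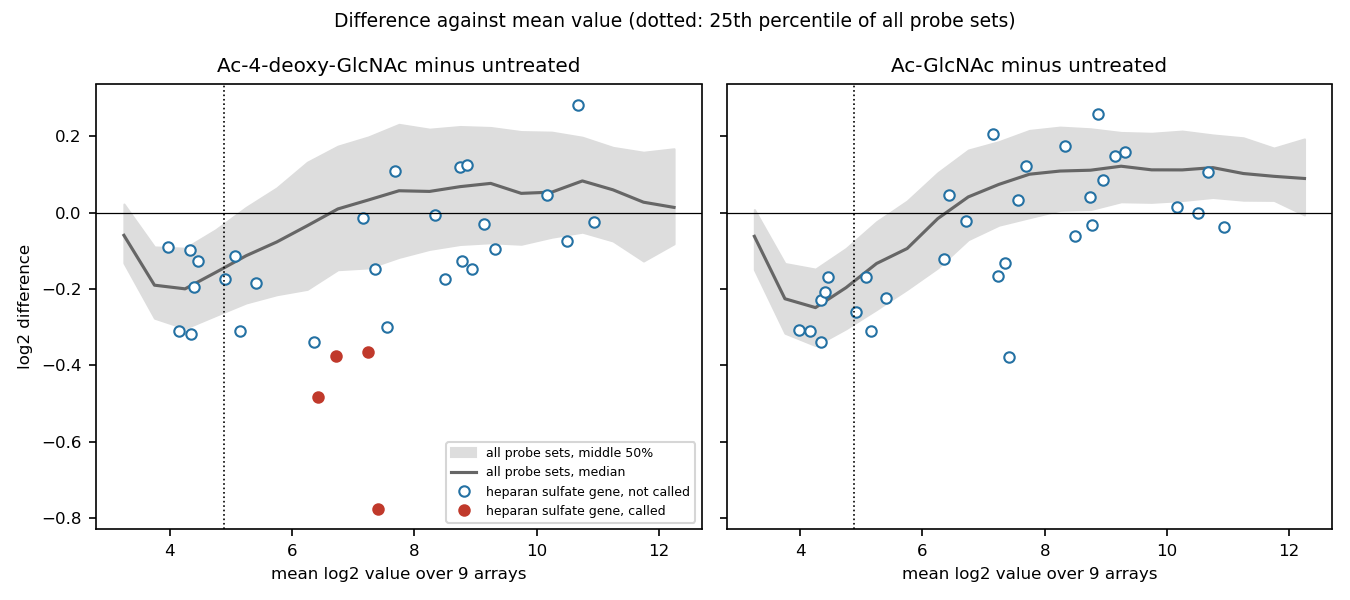
Log2 difference from untreated against the mean log2 value over 9 arrays, for Ac-4-deoxy-GlcNAc (left) and Ac-GlcNAc (right); circles are the 31 genes, filled where called, the line is the median of all probe sets in bins of 0.5 and the band their middle 50%. The median of all probe sets is below 0 at low values in both panels, and the 4 called genes lie below the band on the left.

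Genes next to this pathway were given the same test, and their counts stand beside the 11.0% of all probe sets called between Ac-4-deoxy-GlcNAc and untreated cells. Of 8 measured genes that supply UDP-sugars to heparan sulfate, 1 was higher with Ac-4-deoxy-GlcNAc, SLC35D2, a Golgi nucleotide sugar transporter (difference 0.39, SE 0.10, adjusted p = 0.031), and it differed by 0.48 with Ac-GlcNAc (adjusted p = 0.06). UGDH, which makes UDP-glucuronic acid, differed by -0.0069 with the analog and by 0.37 with Ac-GlcNAc (adjusted p = 0.972 and 0.102). Of 9 measured proteoglycan core proteins, 0 were called in any comparison; SDC1, syndecan-1, differed by -0.33 with Ac-4-deoxy-GlcNAc (adjusted p = 0.0517). Of 13 measured genes of the chondroitin and dermatan branch, which starts from the same linker, 1 was called. CSGALNACT2, which adds the first N-acetylgalactosamine of that branch, averaged 7.41 ± 0.25 with Ac-4-deoxy-GlcNAc and 6.76 ± 0.28 in untreated cells (SD, n = 3 each), higher by 0.65 with the analog (SE 0.15, adjusted p = 0.0165). It differed by 0.38 between Ac-GlcNAc and untreated (adjusted p = 0.137) and by 0.27 between the compounds (adjusted p = 0.482), and neither passed. Of 5 measured genes of lysosomal heparan sulfate breakdown, 0 were called in any comparison. With Ac-GlcNAc, and between the compounds, 0 genes of these 4 lists were called, beside 0.442% and 2.38% of all probe sets. At an unadjusted p under 0.05 there were 6 in each over the lists of 8, 9, 13 and 5 genes, beside 26.4% and 13.6%. The calls of SLC35D2 and CSGALNACT2 were not followed under other settings.

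The calls of the set with Ac-4-deoxy-GlcNAc rested in part on the settings. EXTL2 was called under each setting tried, while B3GALT6, BPNT1 and SLC35B3 kept a difference below 0 throughout and lost their calls in 7, 4 and 10 of them.

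**Figure D4:**
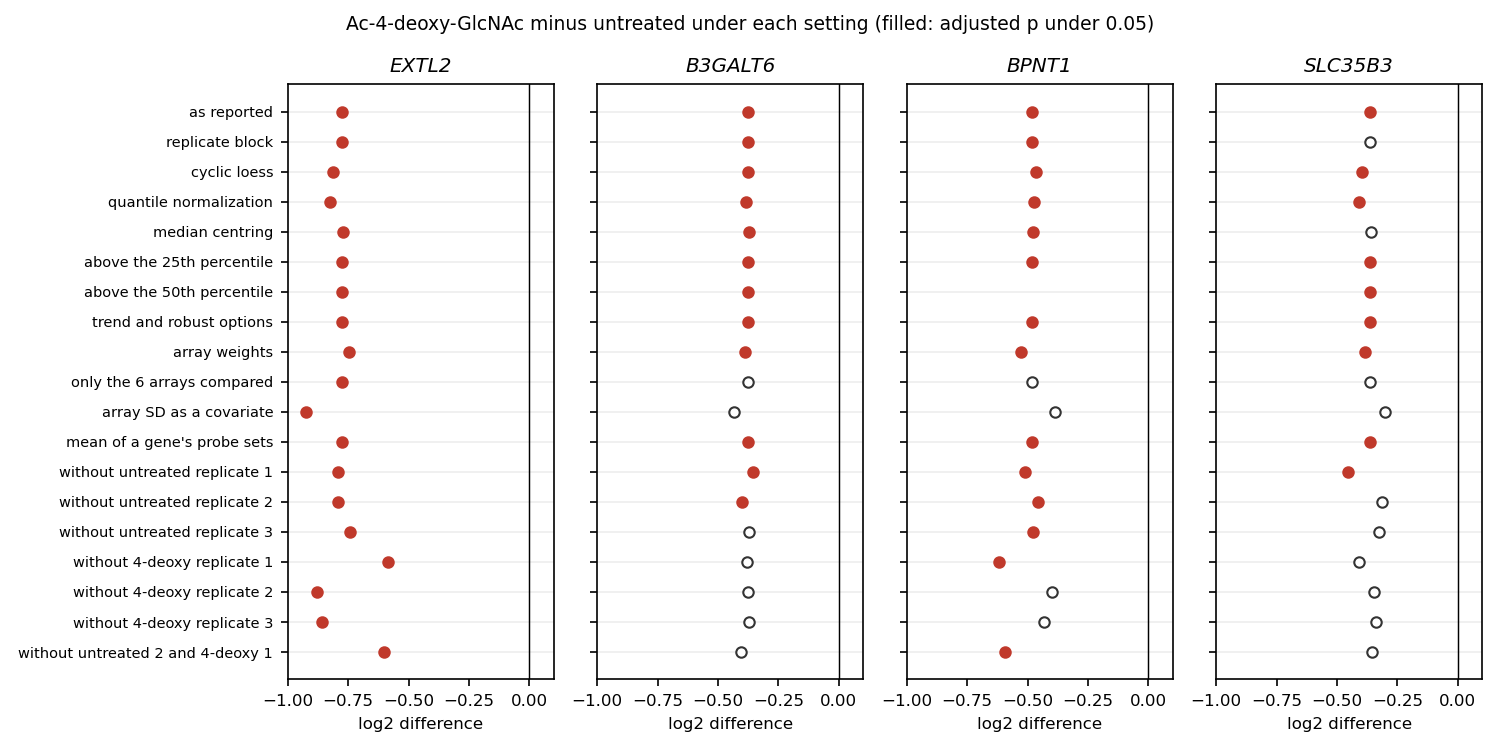
Log2 difference between Ac-4-deoxy-GlcNAc and untreated for the 4 called genes under each setting, filled where the adjusted p was under 0.05. Each point lies left of 0, EXTL2 is filled in every row, and BPNT1 has no point above the 50th percentile because its mean level is below it.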

How the data were processed

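Total RNA of 9 SKOV3 cultures was measured on GeneChip arrays with biotin label, per the labels' protocols. The deposited values are log2 levels of 17859 probe sets, which the authors deposited; the submitters' processing notes name RMA, Partek and hg18, while versions and settings are not given in the sources used here. No scanner files were used, so signal over background could not be assessed, and the number of arrays limits the precision. Of the probe sets, 14413 named 1 gene, 2405 several and 1041 none in the platform annotation. Symbols were updated by gene identifier through RefSeq (GRCh38.p14), where 14385 of the 14413 were found.

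The deposited values went unchanged into limma 3.58.1 (R 4.3.3; lmFit and eBayes). A single fit held all 9 arrays, had no term but the group and left 6 residual degrees of freedom. Tests were two-sided and adjusted over all probe sets. The fit was also run on simulated data with independent normal noise. These data lacked the dependence of direction on level seen on the real arrays, so they say nothing about it. Settings varied were the replicate block, normalization, level filters, variance model, array weights, arrays included, an array SD covariate, averaging of probe sets and leaving out each array; a fit without both untreated replicate 2 and the first Ac-4-deoxy-GlcNAc replicate was added after the data had been seen. The members and lists were chosen with earlier results of these data known. Every measured gene is accounted for, and those with an unadjusted p under 0.05 in any comparison are given array by array. The others are given by their range and their differences from untreated. Outside that rule, NDST1 is given array by array, and UGDH and SDC1 are named, after their values were seen.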

Additional observations from a re-analysis of the deposited data

How the results depend on the processing

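The count of 4 genes called with Ac-4-deoxy-GlcNAc against untreated was 1 (EXTL2) on the 6 compared arrays alone, where 4.58% of all probe sets were called. It was 1 (EXTL2) with array SD as a covariate (3.34% of all probe sets), and ran from 1 to 5 when 1 array was left out (3.38% to 17.2%). It was 2 (EXTL2 and BPNT1) in the later fit that omitted both untreated replicate 2 and the first Ac-4-deoxy-GlcNAc replicate, chosen after seeing the data. The other settings gave 3 to 5, beside 10.3% to 18.8% of all probe sets. With Ac-GlcNAc the count of 0 became 2 (EXTL2 and NDST3) with array weights, where 9.85% of all probe sets were called, against 0.442% without weights. It was 0 otherwise, also in each fit with 1 array left out, where 0.0224% to 7.61% of all probe sets were called. Between the compounds the count of 1 was 0 with median centring, 2 (BPNT1 and B3GALT6) with array weights, 1 above the 50th percentile of mean level (B3GALT6; BPNT1 lies below it) and 0 to 1 when 1 array was left out. Across the 3 groups, array weights changed 3 genes to 6, and the number ran from 1 to 4 when 1 array was left out. As reported, 2.38% of all probe sets were called between the compounds and 8.36% across the 3 groups. Shares under the other settings are not given here for these comparisons. The changed counts are therefore not read as particular to the set.

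With the replicate number as a block the counts were 3 (without SLC35B3), 0, 1 and 3, in the order of the comparisons above. Of all probe sets, 12.4% were then called with Ac-4-deoxy-GlcNAc and 1.81% with Ac-GlcNAc. For the other comparisons the share under this setting is not given here. The replicate numbers were not taken as pairs: the deviations of same-numbered arrays correlated at -0.24 to 0.14 (Ac-4-deoxy-GlcNAc and untreated), 0.05 to 0.37 (Ac-GlcNAc and untreated) and -0.11 to -0.06 (the compounds).

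Single genes were followed under other settings only for comparisons with an unadjusted p under 0.05, most of which were not called. Of these values, 342 kept their direction and side of the threshold, 27 lost a call, 10 gained one and 1 changed sign. For most of the 342 that side was not called. All 27 losses were those of B3GALT6, BPNT1 and SLC35B3. The sign change was that of NDST4 with Ac-GlcNAc against untreated, 0.11 with the array SD as a covariate, against -0.31. The cause was not tested.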
